A study of Saccharomyces cerevisiae with 10 samples.

Results

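Full-length tagged strains are budding yeast strains in which a subunit of NuA4 carries an epitope tag while its whole coding region is kept, and this report describes how their RNA differed from a common reference pool. They supplied 4 of the 10 arrays of the series, 2 for each of 2 strains, and were chosen by their strain labels alone, with no measured value. The first strain, epl1-tag-flag, has a FLAG tag on Epl1 and no truncation in its label, and is called tagged Epl1 here. The second, eaf1-ctrunc-1:982-tag-HA, has an HA tag on Eaf1 and is called Eaf1 1:982. Its label names a C-terminal truncation, yet EAF1 has 982 codons, so residues 1 to 982 are the whole protein, and it was read as full length on that count. The labels do not settle the point. The 3 strains set beside them had lost part of NuA4: Epl1 1:380 and Epl1 1:485, which keep the first 380 or 485 residues of a protein of 832 and carry a FLAG tag, and the eaf1 deletion, whose array titles also name an HA tag that its strain label leaves out. Every array carried RNA of 1 strain in one dye and of the pool in the other, with the strain in Cy3 in replicate a and in Cy5 in replicate b. The labels call the pool refpool and give neither its strain nor its culture. Cells were grown in 24-well plates to mid-log phase, per the series' design text. The labels do not say whether a and b were separate cultures, so p-values measure the spread between arrays, which may be technical. The pool was 1 RNA used on every array, so its own spread is left out of each comparison with it.

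NuA4 is a yeast histone acetyltransferase whose main substrates in chromatin are histones H4 and H2A. Its catalytic subunit, Esa1, is bound by Epl1 in a small module that can act apart from the rest, while Eaf1 serves as the scaffold on which Tra1 and the other subunits assemble. A tag added to the end of such a protein is meant to leave its function alone, and the tagged strain then serves as the control for the truncated or deleted one. A comparison of tagged strains with a pool asks which RNAs differ without loss of the complex, through growth, the tag, the strain or the handling of RNA.

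One label separates the strains from the pool. RNA of all 4 tagged arrays was isolated by a high-throughput robot protocol, and pool RNA by another protocol, so isolation and strain cannot be told apart in these ratios. Epl1 1:380 replicate b is the array whose strain RNA is labelled with the pool's protocol, and its values are given below for that reason. On the tagged arrays 97.3% to 98.9% of gene spots were above background in the strain channel and 97.2% to 98.6% in the pool channel. Values are log2 ratios of strain over pool from the authors' deposited matrix, in which 6373 features (named genes, and reporters with no gene name) were measured. Calls needed a fold over 1.7 and an adjusted p under 0.05 (limma, Benjamini-Hochberg over all features).

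In the mean of both tagged strains 13 of the 6373 features were called, which is 0.204%, with 11 higher (0.173%) and 2 lower (0.0314%) than in the pool. These calls are relative to the bulk of genes on each array. Centring on 8 added RNA controls moved the median of all features by -0.57, and 271 features were then called, 1 higher and 270 lower. Of the 13, NCE103, PHO84 and YLR297W kept their calls under that centring and the other 10 kept their direction without a call. Among these 10, AAD10, AIM33 and BIO3 had a limma adjusted p over 0.05 there (0.074, 0.057 and 0.18). The others missed the fold limit alone, with PYC1 the highest at 0.73 (adjusted p = 0.0043). The size of each rise, and the sign of smaller values, therefore depended on the centring. Under the centring of the deposited matrix most RNAs lay close to the pool. In 95.5% of features the mean was within 0.25 of 0, 39 features lay more than 0.5 away and 6 more than 1, and the median SD over the 4 arrays was 0.059. Alone, tagged Epl1 had 14 calls (0.220%), Eaf1 1:982 had 13 (0.204%), and 10 features were called in each. The 2 comparisons share the pool, so these counts are set side by side and not tested. With no fold limit, 1613 features differed from the pool in the mean (25.3%), 526 in tagged Epl1 (8.25%) and 781 in Eaf1 1:982 (12.3%). Counts of list members below use that wider limit in the mean, and rose or fell there means an adjusted p under 0.05. Such counts are also given from scanner intensities, meaning ratios rebuilt by normexp and loess. These lack the authors' gene-specific dye-bias correction, so the counts are not like for like. The part of that correction in lower counts was not tested.

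**Figure D1:**
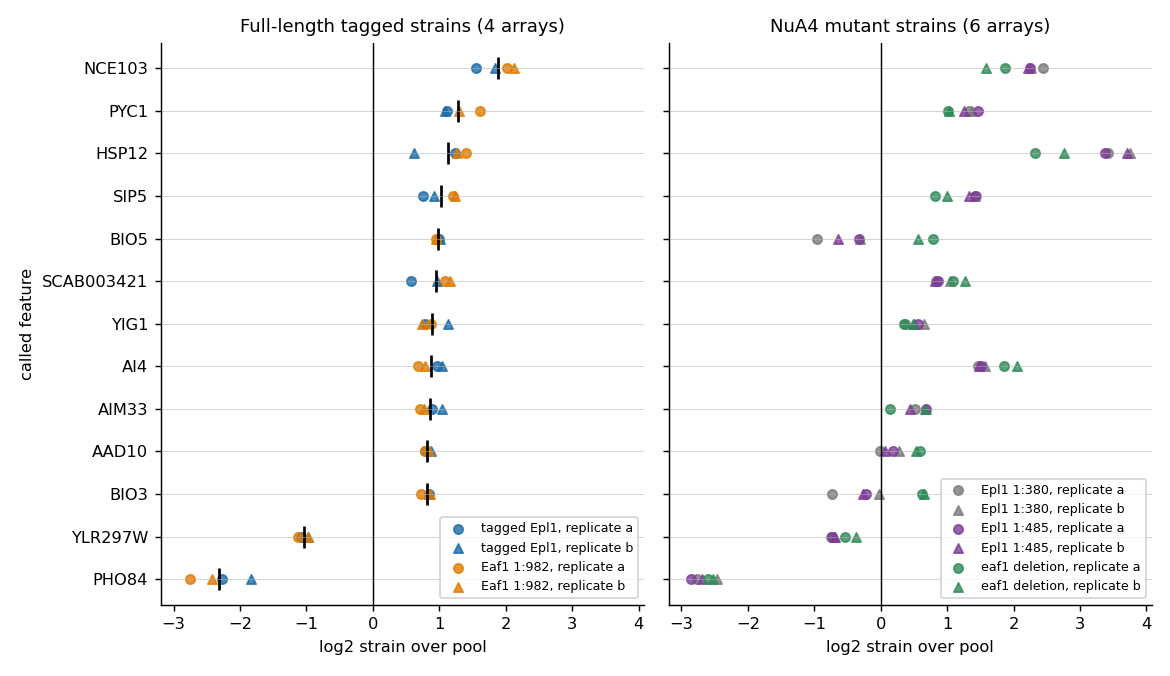
The 13 called features by array, as log2 strain over pool (x axis), with the 4 tagged arrays on the left and the 6 NuA4 mutant arrays on the right. Circles are replicate a, triangles replicate b and black bars the mean of both tagged strains. NCE103 leads the 11 features right of 0 on all 4 tagged arrays, PHO84 and YLR297W lie left of 0, and HSP12, AI4, BIO3 and BIO5 sit elsewhere on the mutant arrays.

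In RNA of whole cultures, fewer cells in a state and less RNA per cell cannot be told apart. The rise with the smallest adjusted p was that of NCE103, the carbonic anhydrase that makes bicarbonate from CO2. Its log2 ratio was 1.55 and 1.84 in tagged Epl1 and 2.02 and 2.13 in Eaf1 1:982. All 4 arrays lay far above the pool. Those of Eaf1 1:982 lay above those of tagged Epl1, but the difference between the strains was not past the test. The mean was 1.88 ± 0.25 (SD, n = 4 arrays of 2 strains), or 3.69-fold higher than in the pool (limma adjusted p = 7.7e-07). PYC1, a pyruvate carboxylase that joins bicarbonate to pyruvate with biotin as its cofactor, had 1.11 and 1.09 in tagged Epl1 and 1.61 and 1.301 in Eaf1 1:982. Its mean of 1.28 ± 0.24 was 2.42-fold above the pool (adjusted p = 1.3e-06). Its paralog PYC2 did not pass the test, with a mean of 0.10 (adjusted p = 0.11). ACC1, the acetyl-CoA carboxylase and another cytosolic biotin enzyme, had 0.82 and 0.53 in tagged Epl1 and 0.75 and 0.77 in Eaf1 1:982. It rose by 0.72 (adjusted p = 4.5e-05) and stayed short of the fold limit, which it passed without tagged Epl1 replicate b (0.79).

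Genes that make, import or attach biotin were higher as well. Of 9 listed biotin genes 7 were measured, and all 7 rose, as did 13.4% of all features. Their median was 0.47, against 0.00 over all features. Centred on the added RNA controls, 1 of the 7 rose and none fell: BIO3 (adjusted p = 0.18) and BIO5 lost their calls, and BIO2, BPL1 and VHR1 lay at -0.014, -0.10 and -0.11. BIO5, the importer of a biotin precursor, had 1.0004 and 1.02 in tagged Epl1 and 0.94 and 0.94 in Eaf1 1:982, a mean of 0.98 ± 0.04 (1.97-fold, adjusted p = 0.00025). BIO3, an aminotransferase of biotin synthesis, had 0.84 and 0.84 in tagged Epl1 and 0.73 and 0.86 in Eaf1 1:982, a mean of 0.82 ± 0.06 (1.76-fold, adjusted p = 0.00041). These 2 genes were the called members, and their 4 arrays lay within a narrow band well above 0. BIO4, which makes dethiobiotin and stands between BIO3 and BIO5 on the chromosome, rose by 0.66. BIO2, biotin synthase, rose by 0.43, VHT1, the biotin transporter, by 0.47, BPL1, which attaches biotin to proteins, by 0.47, and VHR1, a transcription factor of VHT1 and BIO5, by 0.41. The list was chosen with earlier results of these arrays known, so its direction is not independent evidence.

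Phosphate genes gave the largest fall. PHO84, the high-affinity phosphate importer of the plasma membrane, had -2.27 and -1.84 in tagged Epl1 and -2.75 and -2.42 in Eaf1 1:982. Its RNA was 4.99-fold lower than in the pool (-2.32 ± 0.38, SD, n = 4; adjusted p = 7.7e-07). SPL2, which restrains low-affinity phosphate uptake, had -0.89 and -0.76 in Eaf1 1:982 and -0.72 and -0.69 in tagged Epl1. Its mean of -0.76 lay at the fold limit, and it was called in Eaf1 1:982 but not in tagged Epl1. The difference, Eaf1 1:982 minus tagged Epl1 (-0.12, 95% interval -0.27 to 0.03), was not past the test. VTC1 and VTC3, subunits of the vacuolar polyphosphate polymerase, fell by 0.55 and 0.43, and PHO8, the vacuolar alkaline phosphatase, fell by 0.32. Of 24 measured phosphate genes, 10 fell and 2 rose, beside 11.9% of all features that fell. The list median was -0.10. From scanner intensities 5 fell and none rose.

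YLR297W, an open reading frame of unknown function, had -1.08 and -0.98 in tagged Epl1 and -1.12 and -0.98 in Eaf1 1:982. It was 2.06-fold lower than in the pool (-1.04 ± 0.07; adjusted p = 7.7e-07), the other call on the low side. Among uncalled features singled out after their values were seen, MCH5, the riboflavin importer, fell by 0.64 and SNR10, a small nucleolar RNA, fell by 0.63. Both were negative on all 4 tagged arrays.

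The other calls were higher in the tagged strains. HSP12, a small membrane-associated stress protein, had 1.23 and 0.63 in tagged Epl1 and 1.39 and 1.26 in Eaf1 1:982. It rose 2.18-fold (1.13 ± 0.34; adjusted p = 0.00027), with tagged Epl1 replicate b the lowest array. SIP5, a protein that binds the Snf1 kinase, rose 2.04-fold, with 0.75 and 0.92 in tagged Epl1 and 1.21 and 1.23 in Eaf1 1:982. YIG1, a gene linked to glycerol synthesis, had 0.78 and 1.13 in tagged Epl1 and 0.87 and 0.75 in Eaf1 1:982, and it rose 1.84-fold. AIM33 had 0.89 and 1.05 in tagged Epl1 and 0.71 and 0.76 in Eaf1 1:982 (1.81-fold). SCAB003421, a reporter with no gene name, had 0.57 and 0.96 in tagged Epl1 and 1.08 and 1.16 in Eaf1 1:982 (1.92-fold). In SIP5 and SCAB003421 both arrays of Eaf1 1:982 lay above both of tagged Epl1, and in AIM33 both lay below. In none of these was the difference between the strains past the test. No share over all features was taken for such an order of arrays. AAD10, a putative aryl-alcohol dehydrogenase, had 0.78 and 0.87 in tagged Epl1 and 0.79 and 0.84 in Eaf1 1:982, and it rose 1.76-fold (0.82 ± 0.04; adjusted p = 1.1e-05). Its chromosomal neighbour YJR154W had 0.72 and 0.70 in Eaf1 1:982 and 0.77 and 0.82 in tagged Epl1, which passed the fold limit in tagged Epl1 alone (mean 0.75). The difference, Eaf1 1:982 minus tagged Epl1, in YJR154W was -0.08 (95% interval -0.32 to 0.15). Of 7 aryl-alcohol dehydrogenase genes, 5 rose, beside 13.4% of all features, with a list median of 0.16. AAD6 rose by 0.30. From scanner intensities 2 of the 7 rose. Members of this family are close paralogs, and a reporter may read more than 1 of them.

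Of 19 measured mitochondrial genome features 11 rose and none fell, beside 13.4% of all features that rose, and the list median was 0.22. AI4, an intron-encoded endonuclease within COX1, had 0.97 and 1.04 in tagged Epl1 and 0.68 and 0.78 in Eaf1 1:982 (1.83-fold; adjusted p = 2.1e-06). AI2, another COX1 intron frame, had 0.99 and 0.79 in tagged Epl1 and 0.55 and 0.50 in Eaf1 1:982 (mean 0.71). It was called in tagged Epl1 alone, and AI4 likewise missed the fold limit in Eaf1 1:982 (0.73, against 1.01 in tagged Epl1). In neither was the difference between the strains past the test. AI3, AI5_ALPHA and AI5_BETA rose by 0.62, 0.64 and 0.44, and BI4, an intron frame of COB, by 0.49. COX1 rose by 0.22, and its gene overlaps the AI frames. COB was not well above background on any tagged spot. Within the list, from scanner intensities 8 rose, and 3 rose where the dimmest 25% of features were left out, a setting that also removes members of the list.

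**Figure D2:**
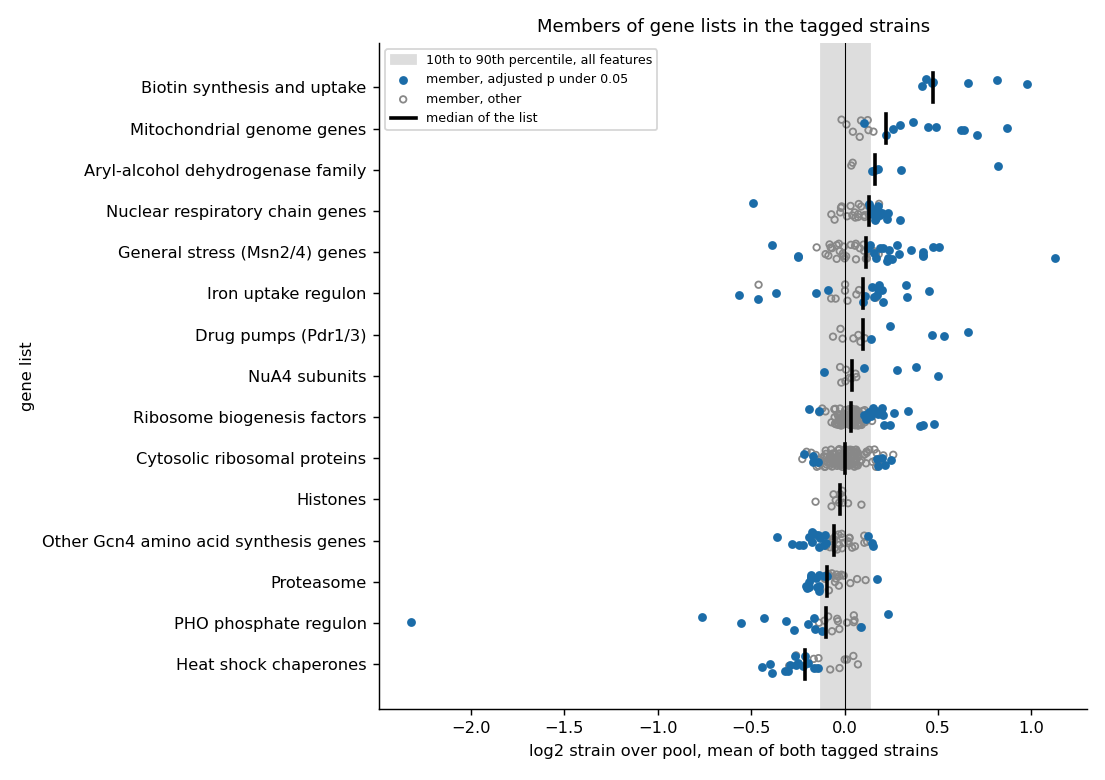
Members of 15 gene lists as log2 strain over pool in the mean of both tagged strains (x axis), 1 point per gene, filled at an adjusted p under 0.05. Black bars are list medians, and the grey band spans the lowest to highest decile of all features, -0.13 to 0.14. The biotin list lies wholly above the band, and PHO84 is the point at -2.32.

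Members of the other lists moved less than the called genes. Of 25 heat shock chaperones, 14 fell and none rose, beside 11.9% of all features that fell, with a median of -0.22. HSP78, the mitochondrial disaggregase, fell by 0.44, and AHA1, which activates Hsp90, by 0.40. Several members lay lower on replicate b than on replicate a in both strains. HSP104 had -0.14 and -0.01 on replicate a of tagged Epl1 and Eaf1 1:982, against -0.44 and -0.40 on replicate b. STI1 had -0.02 and -0.05, against -0.45 and -0.52. Among those that did not keep this order were CUR1 and HSP26. The letter marks dye orientation, and its part in this list was not tested. From scanner intensities 8 fell, and without tagged Epl1 replicate b 9 fell. Of 12 drug resistance genes linked to the transcription factors Pdr1 and Pdr3, 5 rose and none fell, beside 13.4% of all features that rose, and 4 rose from scanner intensities. The list holds both factors and some genes that are not pumps. PDR3 itself rose by 0.24 and ICT1, an acyltransferase, by 0.14. PDR5, SNQ2 and PDR15, all pumps of the ABC family, rose by 0.53, 0.47 and 0.66, and PDR15 was called in Eaf1 1:982 alone, with 0.89 and 0.69 in Eaf1 1:982 and 0.37 and 0.69 in tagged Epl1. The difference, Eaf1 1:982 minus tagged Epl1, in PDR15 was 0.26 (95% interval -0.04 to 0.56).

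Over all features 13.4% rose and 11.9% fell. Of 36 nuclear genes of the respiratory chain 16 rose, among them ATP3 of the ATP synthase by 0.30. In the same list 1 fell, COX5B, the subunit isoform used when oxygen is low, by 0.49 (list median 0.13). Here 5 rose from scanner intensities, 6 without tagged Epl1 replicate a, and 9 without either Eaf1 1:982 replicate. Of 27 iron genes 12 rose and 5 fell, with 3 and 2 from scanner intensities. In the iron list 7 rose without tagged Epl1 replicate a, 5 rose without any 1 of the other tagged arrays, and 3 fell in each of those fits. ISU2, a scaffold for iron-sulphur clusters, fell by 0.57, while FRE1, a ferric reductase, was at 0.45 (adjusted p = 0.015, and 0.35 from scanner intensities) and SIT1, a siderophore importer, at 0.33 (adjusted p = 0.016, and 0.057 from scanner intensities). Of 51 general stress genes of Msn2 and Msn4, 19 rose and 3 fell, with a median of 0.11. That count was 12 without tagged Epl1 replicate a, 11 without Eaf1 1:982 replicate a, and 11 from scanner intensities.

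Growth genes lay near the pool. Counts of members here stand beside 13.4% of all features that rose and 11.9% that fell. Ribosomal protein genes had a median of 0.00 over 126 genes, of which 5 rose and 4 fell, and none did so from scanner intensities. Ribosome biogenesis factors had a median of 0.03 over 114 genes, of which 18 rose and 2 fell. From scanner intensities 6 rose, and 8 to 14 rose when 1 tagged array was left out. The largest value among them was that of DBP2, an RNA helicase, at 0.48 (adjusted p = 0.00089). No histone gene of 11 passed the test. Of 33 proteasome genes 15 fell, but the median was -0.10, none fell from scanner intensities, and 4 to 7 fell when 1 tagged array was left out. Mating-type markers were looked at because the strains' mating type is not in the labels. The 6 a-specific genes lay between -0.16 and 0.14 on the tagged arrays and none passed the test. The 4 alpha-specific genes lay between -0.20 and 0.63 and 2 rose. MATALPHA1 and MATALPHA2, not among those 4, were at -0.09 and -0.22 in the mean (limma adjusted p = 0.045 and 0.00076). Both were negative on all 4 tagged arrays, so the alpha genes did not all move in the same direction. The direction of small values such as these depends on the centring, as given in the closing section.

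Genes of NuA4 itself were compared next. EPL1 had 0.59 and 0.58 in Eaf1 1:982, and -0.05 and -0.01 in tagged Epl1, where the tag sits on that gene. The mutant arrays ran from 0.34 to 1.14, so tagged Epl1 was the lowest strain. EAF1 had 0.74 and 0.54 in Eaf1 1:982 and 0.15 and 0.11 in tagged Epl1, against -1.999 and -2.14 in the eaf1 deletion. Each tagged gene was therefore near the pool or above it, and the EAF1 values matched the deletion label. Of the 13 subunits 4 rose and 1 fell, beside 13.4% and 11.9% of all features, with 2 and 0 from scanner intensities. The 4 were TRA1, EAF7 and the tagged genes EPL1 and EAF1, whose means average unlike values. The EPL1 mean of 0.28 came from -0.03 in tagged Epl1 and 0.59 in Eaf1 1:982, and that of EAF1 from 0.13 and 0.64. The count is therefore no sign of a rise of the subunits as a set. TRA1, the large scaffold shared with SAGA, was at 0.50 on average with 0.46 to 0.57 on the 4 arrays. The genes next to EPL1 moved less, with means of 0.16 for BST1 and -0.10 for BUD27. Those next to EAF1 had means of 0.13 for GGA1 and 0.07 for BCP1. BCP1 lay between -0.96 and -0.49 on the mutant arrays and between 0.03 and 0.10 on the tagged ones.

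**Figure D3:**
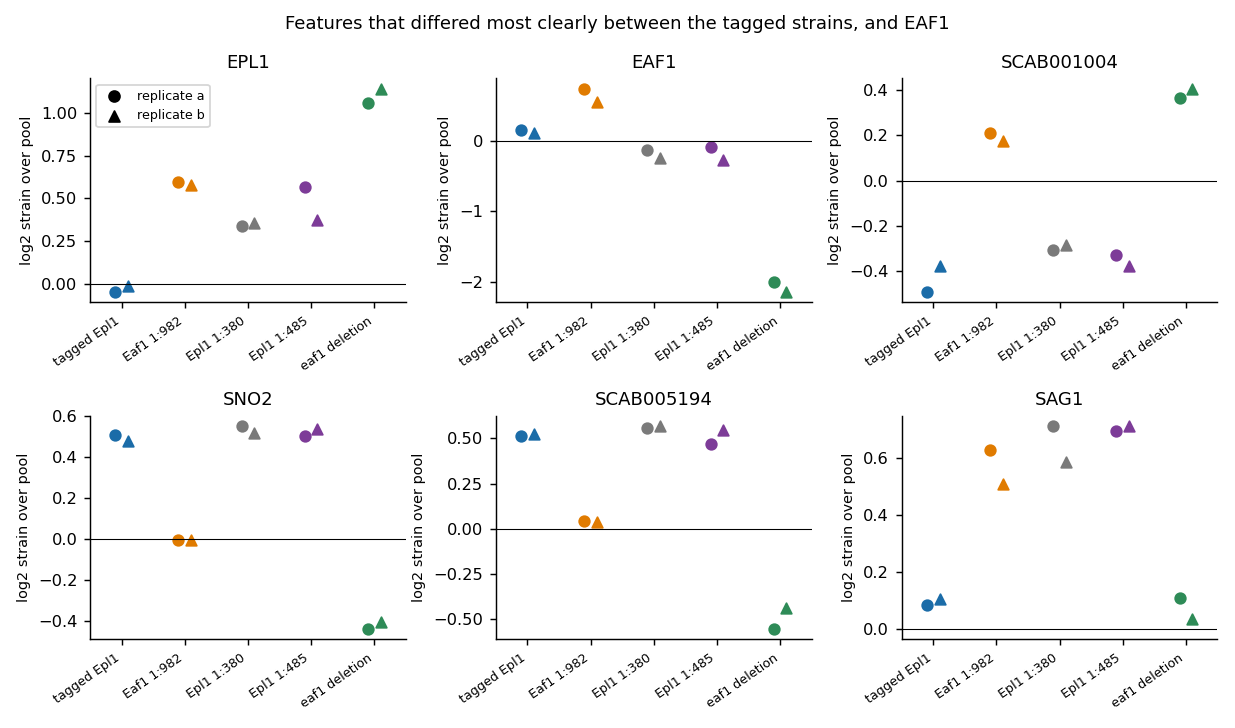
EPL1, EAF1, SCAB001004, SNO2, SCAB005194 and SAG1 as log2 strain over pool (y axis) in each strain (x axis), with circles for replicate a and triangles for replicate b. EPL1 is lowest in tagged Epl1, and SNO2 lies near 0.5 in the strains with Epl1 tags, near 0 in Eaf1 1:982 and near -0.4 in the eaf1 deletion.

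The tagged strains were close to each other. Eaf1 1:982 minus tagged Epl1 gave 0 called features (0.00%) in limma, where 218 had an unadjusted p under 0.05. The largest difference was 0.63, below the fold limit, and the 95% interval of a typical feature reached 0.16 either side. With no fold limit 4 features passed (0.0628%): EPL1 (0.62, adjusted p = 0.018), the unnamed reporters SCAB001004 (0.63) and SCAB005194 (-0.48), and SNO2 (-0.50), a gene of vitamin B6 metabolism. SNO2 had -0.00 and -0.01 in Eaf1 1:982, against 0.51 and 0.48 in tagged Epl1. Epl1 1:380 and Epl1 1:485 had 0.50 to 0.55 in SNO2, so all Epl1 arrays lay together. SNO2 has a close paralog that its reporter may also read. SNZ3, a partner gene of the same pathway, had 0.04 and 0.21 in Eaf1 1:982, against 0.55 and 0.52 in tagged Epl1, and its difference missed the test (-0.41, adjusted p = 0.21). SAG1, the alpha-agglutinin of the cell surface, had 0.63 and 0.51 in Eaf1 1:982, against 0.09 and 0.11 in tagged Epl1 (adjusted p = 0.051). AI1, an intron frame of COX1, differed by -0.54 (adjusted p = 0.75, and 0.047 with the replicate letter as a block).

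These small differences depended on the fit. From scanner intensities, which lack the authors' dye-bias correction, none of the 6373 features passed. The limma adjusted p of the EPL1 difference was there 0.9997 by normexp and 0.51 by print-tip loess. With only the 4 tagged arrays in the fit none passed, and the adjusted p was 0.059 in EPL1 and 0.067 in SCAB001004. In the main fit the variance came from the mutant arrays as well. None passed without tagged Epl1 replicate a or without either Eaf1 1:982 replicate, and 1 passed without tagged Epl1 replicate b. With the replicate letter as a block 15 passed, among them EAF1 (0.51, adjusted p = 0.0096 with the block and 0.15 without), SAG1 (adjusted p = 0.013 with the block), AI1 and PHO84 (-0.53, adjusted p = 0.047 with the block). The EPL1 difference kept a size of 0.60 to 0.65 in each of these fits.

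The mutants show which differences from the pool were not shared. Tagged strains minus mutants, in which the pool cancels but the centring does not, gave 170 calls (2.67% of features). Of these 39 were higher (0.612%) and 131 lower (2.06%), relative to the bulk of genes. Centred on the added RNA controls, the median of this comparison over all features was -0.27, against -0.008 in the deposited matrix. The mutants against the pool gave 211 (3.31%), and with no fold limit these 2 comparisons gave 3500 (54.9%) and 4772 (74.9%). Of the 13 features called against the pool, 4 were among the 170. BIO5 was higher in the tagged strains by 1.12 (95% interval 0.86 to 1.39; adjusted p = 5.5e-05) and BIO3 by 0.81 (0.55 to 1.07). The mutants were not alike in these genes: BIO5 had -0.96 to -0.31 on the Epl1 1:380 and Epl1 1:485 arrays and 0.79 and 0.56 in the eaf1 deletion. HSP12 was lower in the tagged strains (difference -2.10, 95% interval -2.41 to -1.78), with 0.63 to 1.39 on their arrays, against 2.32 to 3.75 on those of the mutants. AI4 was lower (-0.79, interval -0.90 to -0.68), with 0.68 to 1.04 in the tagged strains, against 1.47 to 2.05 in the mutants.

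**Figure D4:**
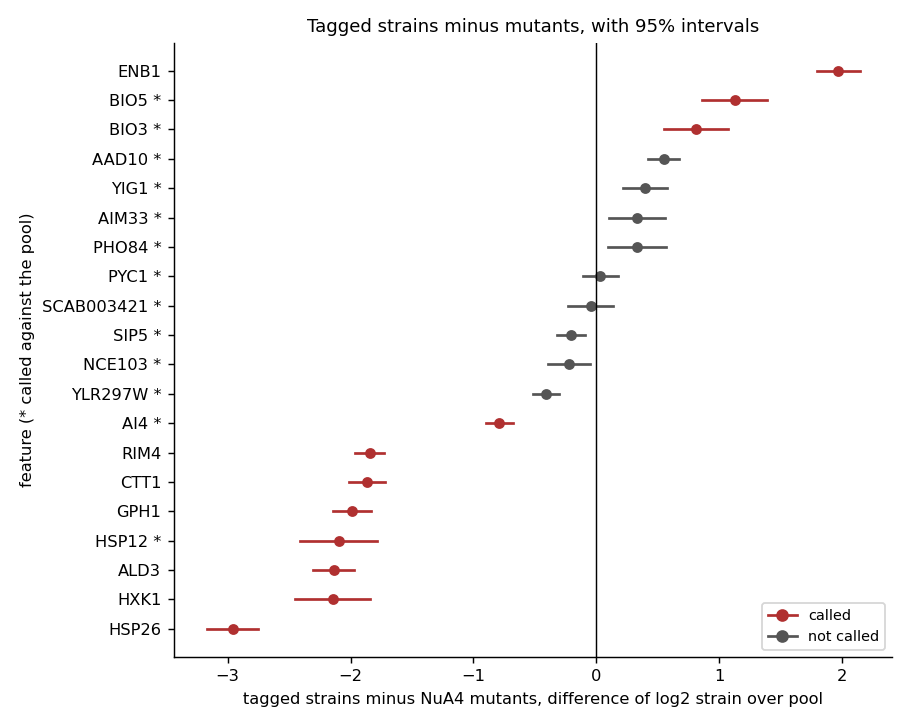
Difference of log2 strain over pool between the tagged strains and the NuA4 mutants (x axis), with 95% intervals, for the 13 features called against the pool (starred) and the 8 largest called differences, of which HSP12 is both. HSP26 lies at -2.96 and ENB1 at 1.97, while the intervals of PYC1 and SCAB003421 include 0.

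For the other calls the tagged strains and the mutants lay closer together. PYC1 differed by 0.03 (95% interval -0.11 to 0.18) and SCAB003421 by -0.05 (-0.23 to 0.13). NCE103 differed by -0.22 (-0.39 to -0.05), SIP5 by -0.21 (-0.32 to -0.10), PHO84 by 0.33 (0.10 to 0.56) and YLR297W by -0.41 (-0.51 to -0.30), all short of the fold limit. AAD10 was higher in the tagged strains by 0.55 (0.42 to 0.68), YIG1 by 0.40 (0.22 to 0.58) and AIM33 by 0.33 (0.11 to 0.56). In 8 of the 13 the tagged and mutant arrays did not overlap, beside 37.3% of all features. All 10 arrays lay on the same side of 0 in 10 of the 13. On Epl1 1:380 replicate b, the array with the pool's isolation label, 11 of the 13 had the sign of the tagged strains. It had 2.26 for NCE103, 1.37 for PYC1 and -2.46 for PHO84, while BIO3 and BIO5 had the other sign. The 13 were chosen by their values on the tagged arrays, and all arrays share the pool. No share over all features was taken for these counts of sign, so they are description only.

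Apart from HSP12, the 8 largest called differences from the mutants were in RNAs whose mean in the tagged strains lay within 0.5 of the pool. HSP26, a small heat shock protein, was at -0.39 in the tagged strains and 2.57 in the mutants. HXK1, a hexokinase, was at -0.07 against 2.07, GPH1, glycogen phosphorylase, at 0.10 against 2.09, and ALD3, an aldehyde dehydrogenase, at 0.42 against 2.56. CTT1, the cytosolic catalase, was at 0.42 against 2.29, and RIM4, a regulator of meiotic RNAs, at 0.13 against 1.97. ENB1, the importer of the siderophore enterobactin, was at -0.07 against -2.04. YOL014W, of unknown function and singled out after its values were seen, was at -0.48 against -1.96. Over the Msn2 and Msn4 list the median was 0.11 in the tagged strains and 1.07 in the mutants. Of its 51 genes 33 were called lower in the tagged strains than in the mutants, beside 2.06% of all features.

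**Figure D5:**
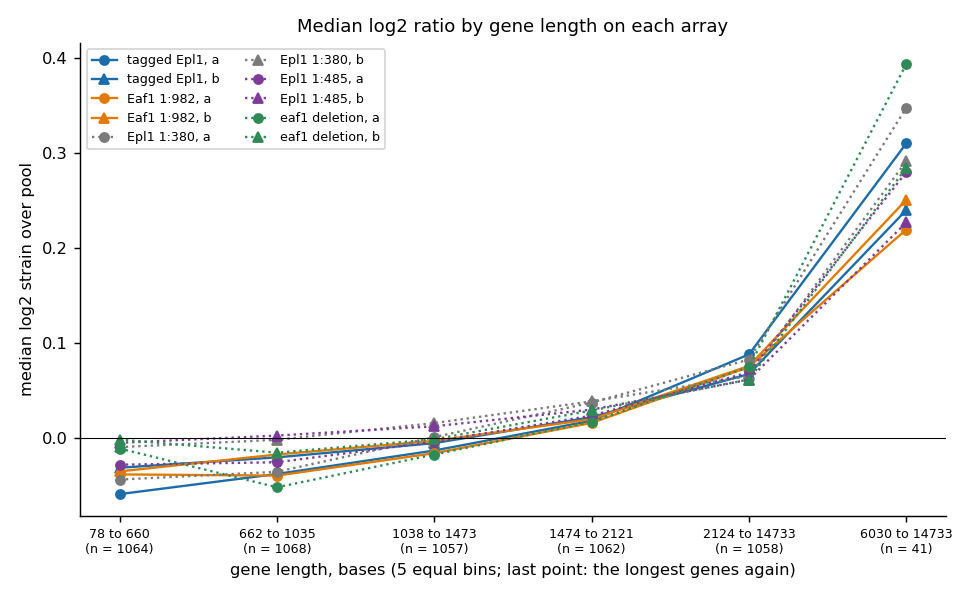
Median log2 strain over pool (y axis) by gene length (x axis) on each of the 10 arrays, with solid lines for the tagged strains and dotted lines for the mutants. The last point takes the 41 genes over 6000 bases again, where the medians run from 0.22 to 0.39.

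Gene length moved with the ratios on all arrays. In 5 bins of about equal size from short to long genes, the medians in the tagged strains were -0.04, -0.03, -0.01, 0.02 and 0.07. The 41 genes over 6000 bases had a median of 0.25 in the tagged strains, against 0.28 in the mutants, and 38 of the 41 were positive on all 4 tagged arrays (24.3% of all features were). Epl1 1:380 replicate b had 0.29 in these genes. Long genes named above include ACC1 with 6702 bases, TRA1 with 11235 and PDR5 with 4536, and the part of length in their values was not tested. PYC1 has 3537 bases, NCE103 666 and HSP12 330. Medians by pool signal were flat, from -0.01 to 0.00 over 5 bins.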

How the data were processed

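Per the deposited protocol text, the authors made the matrix of log2 ratios (Cy5 over Cy3) by print-tip loess with a span of 0.4 on gene probes, without background subtraction, then corrected gene-specific dye bias from wild-type hybridisations. Per the file headers, the deposited raw files hold spot intensity and local background. Replicate a columns were multiplied by -1, and all spots with the same gene name were averaged (2 spots per reporter). Names were updated through a RefSeq table of assembly R64, which also served for lengths and neighbours: 5255 were current symbols, 58 synonyms and 2 were not found, which left 5311 named genes. The files name no build, so no coordinates are given. On the tagged arrays the slope of the matrix on uncorrected print-tip ratios was 0.55 to 0.85; the dye-bias correction and mismatch of these rebuilt ratios cannot be told apart in it.

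All 10 arrays entered limma 3.58.1 (R 4.3.3, lmFit and eBayes) with 1 coefficient per strain, 5 residual and 4.00 prior degrees of freedom. The 6 comparisons were each adjusted over all 6373 features. The steps were tested on simulated data. Deviations of same-letter arrays correlated between strains at 0.29 to 0.56 (0.32 between the tagged strains). The letter marks dye orientation and may mark other shared handling, and it was tried as a block.

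The text names EPL1 and EAF1, all called features, up to 10 called in a single strain, the 8 largest differences between strains or from the mutants, and up to 6 called members or the 2 largest changes per gene list, as far as they are described. Further list members, MCH5, SNR10, YOL014W and neighbours of EPL1 and EAF1 were chosen after their values were seen. The members and all 38 lists were chosen with earlier results of these data known. Alternatives were other signals, centring, spots, filters, fits and limits, and leaving out each array. Figures were drawn with Python 3.11.15.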

Additional observations from a re-analysis of the deposited data

Results flagged for a closer look

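In BIO3 the array of Eaf1 1:982 replicate a (0.73) stood apart from the other 3 tagged arrays, which lay between 0.84 and 0.86. A gap of that share of the range arises by chance in about 5% of groups of 4, and 1 of 68 genes tested showed one.

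The tagged strains differed from each other past the test without a fold limit in EPL1 (0.62, Eaf1 1:982 minus tagged Epl1), SCAB001004 (0.63), SCAB005194 (-0.48) and SNO2 (-0.50). SCAB001004 had 0.21 and 0.18 in Eaf1 1:982, against -0.49 and -0.38 in tagged Epl1. SCAB005194 had 0.04 and 0.03 in Eaf1 1:982, against 0.51 and 0.52 in tagged Epl1.

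Called differences between the tagged strains and the mutants stood out in AI4 (-0.79), BIO3 (0.81), BIO5 (1.12) and HSP12 (-2.10), which were also called against the pool.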

How the results depend on the processing

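The count of 13 calls in the mean of both tagged strains was 13 to 15 when any array was left out, 13 with the replicate letter as a block and 14 from scanner intensities. These 13 features kept their calls in all 19 alternatives to the values, fit or arrays other than centring on added RNA. Without a fold limit the counts were 1613 for the mean, 526 for tagged Epl1, 781 for Eaf1 1:982, 4 for their difference, 3500 for tagged strains minus mutants and 4772 for mutants minus pool. The 1613 (852 higher, 761 lower) became 235 higher and 168 lower from scanner intensities by normexp, which lack the dye-bias correction. Counts at this limit are therefore less firm than calls with the fold limit. With the replicate block the same limit gave 984 in tagged Epl1 and 1316 in Eaf1 1:982.

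Centring on 8 of 14 added RNA controls in place of all genes moved the median of all features by -0.57 in the mean of both tagged strains. It then gave 271 calls for the mean (1 higher), 204 for tagged Epl1, 324 for Eaf1 1:982 and 500 for mutants minus pool. NCE103, PHO84 and YLR297W stayed called, and the other 10 missed a limit, although relative to that shift all 13 lay within 0.10 of their main values. The following values, positive in the deposited matrix, turned negative: EPL1 -0.26, EAF1 -0.17, TRA1 -0.039, BST1 -0.42, GGA1 -0.44, SAG1 -0.10, SNO2 -0.31, SNZ3 -0.24, SCAB005194 -0.28, BIO2 -0.014, BPL1 -0.10, VHR1 -0.11, AI1 -0.30, AI3 -0.010, AI5_BETA -0.20, BI4 -0.25, COX1 -0.40, ALD3 -0.20, CTT1 -0.12, RIM4 -0.60, AAD6 -0.21, PDR5 -0.049, SNQ2 -0.050, ATP3 -0.15, DBP2 -0.043, FRE1 -0.17 and SIT1 -0.20. Isolation and strain cannot be told apart in this shift, and its cause was not tested. Under the same centring the median of tagged strains minus mutants was -0.27, so its higher and lower calls also depend on the centring.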
